A study of Mus musculus with 97 samples.

Results

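Centromere and kinetochore genes encode the proteins that mark the centromere of each chromosome, build the kinetochore on it and hold it to the spindle in mitosis. Their RNA was followed through early G1, late G1 and G2 in mouse embryonic stem (ES) cells of a line named Sox2-AID. The genes were chosen from a list of 40 symbols, of which 37 have a row in the deposited count table of 37620 genes. All 37 passed the filter on low counts, with 16011 genes tested in all. The list holds 4 genes of CENP-A and its loading (3 with a row), 1 centromere DNA-binding protein, 11 subunits of the constitutive centromere-associated network, 9 of the KMN network or its partners, 2 of the fibrous corona, 2 of the RZZ complex, 3 of the Ska complex (1 with a row), 2 of the spindle checkpoint, 3 of the chromosomal passenger complex and 2 shugoshins. It also holds Cenpj, which carries a CENP symbol and encodes a centriole protein.

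The RNA-seq comprised 18 libraries in 6 groups of 3. All 6 groups were the same Sox2-AID line, so untreated and treated cells alike carried the tagged Sox2. An auxin-inducible degron (AID) is a tag that marks its protein for destruction when the plant hormone auxin is added to cells that hold the matching plant receptor. The treated groups received 0.5 mM auxin for 3 h and the untreated groups none, and 20 µM of the DNA dye Hoechst was added for the last 20 min. Cells were then sorted by Hoechst and GFP into early G1, late G1 and G2. The labels do not say what GFP reports, whether the line is 1 clone or whether numbered libraries came from separate cultures, so p-values measure the spread between these libraries, which may be technical. Sox2 protein was not measured in these files, and Sox2 mRNA is no check of a degron.

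Centromeres are set by nucleosomes that carry the histone H3 variant CENP-A rather than by DNA sequence alone. CENP-A is diluted when DNA is replicated, and in vertebrate cells new CENP-A is deposited after mitosis, in G1, by its chaperone HJURP with the help of the Mis18 complex. The constitutive centromere-associated network sits on CENP-A chromatin throughout the cycle, and the KMN network assembles on it for mitosis and binds spindle microtubules. Many genes with mitotic roles are transcribed late in the cycle, and their promoters often carry CCAAT boxes, bound by NF-Y, and a cell cycle genes homology region (CHR), bound by the DREAM and MuvB-Myb complexes.

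Promoter windows from RefSeq (build GRCm38.p6, 250 bases before to 50 after the annotated start) were found for 32 of the 37 genes, in 36 windows. They were searched on both strands for TTTGAA, the usual CHR core, for its variant TTCGAA, and for CCAAT. The first, TTTGAA, was present in 12 of the 32 genes (37.5%), against 20.2% of the 27025 genes with a window. CCAAT was present in 21 of 32 (65.6%) against 41.1% of all genes, and TTCGAA in 2 of 32 (6.25%) against 1.8%. Among the 15 of these genes that were higher in untreated G2 than in early G1, 13 held CCAAT (86.7%), and among the 17 others 8 did (47.1%). The corresponding shares for TTTGAA were 6 of 15 (40%) and 6 of 17 (35.3%). These shares are descriptions of letters in a window, with no test, and a match is not a bound site.

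The 130 bases from 100 before to 30 after the start are shown for 7 genes that span the patterns described here, each read 5′ to 3′ on the strand of its gene, with matches to the motifs in capitals (a match on the opposite strand appears as its reverse complement). Cenpa had its lowest level in late G1. Cenpf, Bub3, Spc25 and Cdca8 were higher in G2 and hold TTTGAA and CCAAT within this stretch. So does Cenpa, which was not called between early G1 and G2. The 7 genes were picked by hand and do not stand for the list, where TTTGAA was in 6 of the 15 genes called higher in untreated G2 than in early G1 and in 6 of the 17 others. Pmf1, Oip5 and Cenpn, not called there, hold both motifs in their windows, and Zwint, Cenpi and Cenpq, called there, hold no TTTGAA. Cenpe was lowest in late G1 and high in G2 and holds CCAAT only, and Cenpb, which passed no test between phases, holds neither. In Cdca8 the TTTGAA and an opposite-strand CCAAT share a base.
Cenpa (chr5:30666786-30666915, plus strand): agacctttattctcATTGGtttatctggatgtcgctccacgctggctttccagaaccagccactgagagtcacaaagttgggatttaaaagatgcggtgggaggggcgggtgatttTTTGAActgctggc
Cenpf (chr1:189688057-189688186, minus strand): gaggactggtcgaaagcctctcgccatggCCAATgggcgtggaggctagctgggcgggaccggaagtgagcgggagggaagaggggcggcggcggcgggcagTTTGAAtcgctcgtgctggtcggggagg
Spc25 (chr2:69206184-69206313, minus strand): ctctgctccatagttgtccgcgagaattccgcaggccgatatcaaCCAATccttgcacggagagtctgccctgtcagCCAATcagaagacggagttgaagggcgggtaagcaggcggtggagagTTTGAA
Bub3 (chr7:131560270-131560399, plus strand): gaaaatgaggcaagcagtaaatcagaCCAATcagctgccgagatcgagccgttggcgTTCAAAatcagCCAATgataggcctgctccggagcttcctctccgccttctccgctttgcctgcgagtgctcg
Cdca8 (chr4:124936888-124937017, minus strand): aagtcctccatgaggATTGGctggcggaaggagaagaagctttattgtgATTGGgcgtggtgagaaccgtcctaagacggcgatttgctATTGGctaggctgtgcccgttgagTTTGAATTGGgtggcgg
Cenpe (chr3:135212463-135212592, plus strand): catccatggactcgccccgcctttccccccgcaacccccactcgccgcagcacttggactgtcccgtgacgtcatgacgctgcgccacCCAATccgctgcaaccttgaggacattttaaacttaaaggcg
Cenpb (chr2:131180038-131180167, minus strand): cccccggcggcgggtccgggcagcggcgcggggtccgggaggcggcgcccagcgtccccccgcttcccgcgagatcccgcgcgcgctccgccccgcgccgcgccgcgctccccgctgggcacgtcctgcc
Counted with the annotated start as base 1, the TTTGAA began at base 3 in Cenpf, 14 in Cdca8, 17 in Cenpa and 25 in Spc25. In Bub3 it lay before the start, between CCAAT boxes that began 74 and 32 bases before it.

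**Figure D1:**
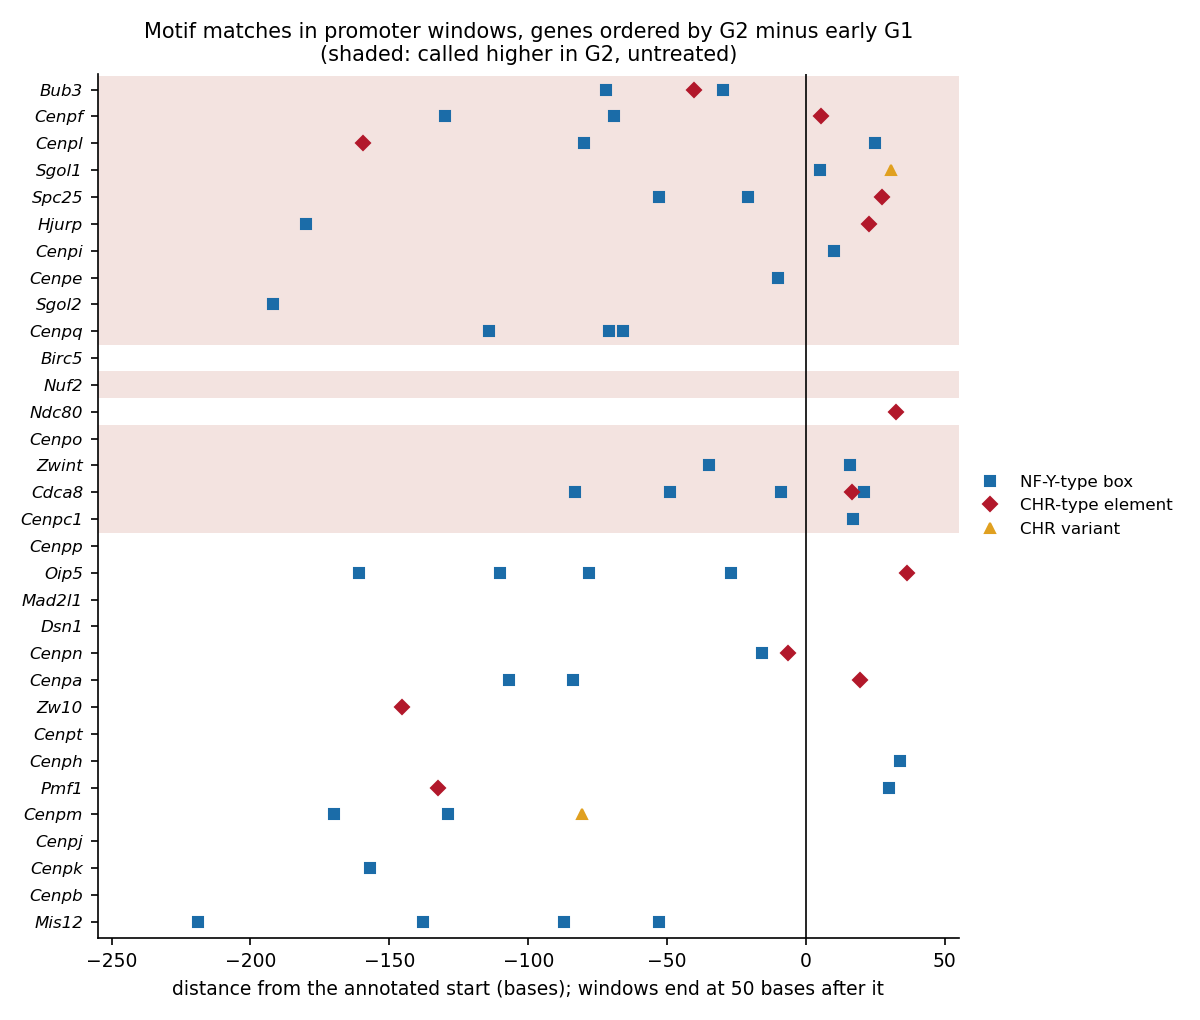
Motif matches (symbols) in the first RefSeq promoter window of each of the 32 genes (rows), by distance in bases from the annotated start, with genes ordered by their G2 minus early G1 difference and shaded where called higher in untreated G2. Of the 15 shaded genes, 13 hold an NF-Y-type box (CCAAT), and most CHR-type elements (TTTGAA) lie within 50 bases of the start.

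Totals ran from 24841963 to 37587322 estimated reads per library, and each of the 37 genes had at least 160 reads in every library (lowest, Cenpl), so low depth did not limit their detection. ES cell markers (8 genes, Sox2, Pou5f1 and Nanog among them) summed to 2278 to 2752 CPM (reads per gene scaled to the size of the library), while 8 fibroblast markers came to 3.689 to 7.516 CPM, with Lum, Dcn and Postn at a median of 0. Of the 8 ES markers, 5 were called lower with auxin averaged over the phases (edgeR), against 494 of all 16011 genes tested. Klf4 was lowest at -1.09 on the log2 scale (adjusted p = 3.03e-05), then Sall4, Zfp42, Nanog and Esrrb at -0.53 to -0.24. Sox2 and Pou5f1 differed by 0.09 and 0.06. Within single phases, 0 of the 8 were called lower in early G1, 3 in late G1 and 1 (Klf4) in G2. Of all genes, 4, 84 and 45 were called lower in these phases. The sort matched its labels in sums of markers outside the list, but not in every gene. Of 15 genes of G2 and mitosis, 7 were called higher and 0 lower in untreated G2 than in early G1 (1.9% and 1.7% of all genes). Over late G1, 13 were called higher (2.72%), and from early to late G1, 1 was higher and 6 lower (3.27% and 3.75%). Of 13 S phase entry genes, 10 were higher in late than in early G1 (3.27%). The sum of 13 S phase entry genes was 3394 to 3997 CPM in untreated late G1 against 2279 to 2780 in early G1 and 2437 to 2787 in G2, and that of 15 genes of G2 and mitosis was 3995 to 4335 CPM in untreated G2 against 1853 to 2271 in early G1 and 1879 to 2157 in late G1. Libraries also differed within their groups. The untreated early G1 library numbered 3 stood out most, with the lowest value of its group for 31 of the 37 genes, and its sum over the G2 and mitosis genes was 1853 CPM against 2258 and 2271. The treated G2 library numbered 2 was lowest for 25 of the 37, the untreated G2 library numbered 3 for 24 and the treated early G1 library numbered 3 for 20.

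Per length, the 37 genes covered a wide range of levels. On the deposited TPM scale, which divides by transcript length, averaged over the 18 libraries, the level was highest for Birc5, the passenger complex subunit survivin, at 17.2 ± 3.9 (SD, n = 18), then Zwint at 17.1 ± 2.3 and Hjurp at 16.3 ± 3.6, and lowest for Cenpl at 0.778 ± 0.45 and Cenpj at 0.396 ± 0.065. Birc5 lay at percentile 94.5 of the 16011 genes tested and Cenpj at percentile 36.8. These SDs hold phase differences as well as replicate spread, and the first 3 genes differ by less than them. Their order also varied by phase: in untreated cells Zwint averaged most in early G1 (15.5 ± 0.97 against 15.3 ± 3.7 for Birc5, SD, n = 3) and late G1 (17.6 ± 1.6 against 16.4 ± 2.7), and in G2 Bub3 at 21.2 ± 1.4 lay above Zwint at 19.8 ± 0.94. Subunits that work in 1 complex did not share 1 level: within the Ndc80 complex, Spc25 averaged 12.6 TPM, Nuf2 6.74, Ndc80 5.77 and Spc24 4.8. A single non-coding RNA entry took 50.5% to 62.4% of the TPM in each library, so TPM values of all other genes are scaled down by an amount that differs between libraries, and comparisons between groups below use CPM scaled by TMM.

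Between phases, every call into G2 was a rise, for 18 of the 37 genes over early G1 and 15 over late G1, and calls in late G1 went both ways. The summed level of the 37 was 1736, 2040 and 2084 CPM in untreated early G1, 1942 to 2013 CPM in late G1 and 3034 to 3111 CPM in G2. G2 thus lay above both G1 phases in every library, while early and late G1 overlapped. From early G1 to G2, 18 of the 37 rose (adjusted p under 0.05, edgeR) and none fell, against a background of 1.9% of all tested genes called higher and 1.7% called lower. The median difference was 0.42 on the log2 scale, against 0.00 over all genes, and 5 genes rose at least 2-fold. From late G1 to G2, 15 rose and none fell, against backgrounds of 2.72% higher and 2.32% lower, with a median of 0.22. From early to late G1, 7 rose and 3 fell, against backgrounds of 3.27% higher and 3.75% lower, with a median of 0.15. In bulk RNA, fewer cells with a transcript and less transcript per cell cannot be told apart.

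Libraries with the same replicate number deviated together in every phase comparison, and with the number as a block the counts were larger. From early G1 to G2, 28 genes were then called higher and 0 lower (backgrounds 7.79% and 6.95%), from late G1 to G2 19 higher and 3 lower (8.08% and 7.79%), and from early to late G1 15 higher and 5 lower (11.4% and 10.4%). The background rises with the block as well, so the members' counts are to be read against it. Several untreated calls named below were lost when 1 library was left out and kept with the block. They were Ska1, Cdca8 and Cenpe from early G1 to G2, Hjurp from late G1 to G2, and Sgol1, Cenpi, Cenpq and Cenpj into late G1. Without the untreated early G1 library numbered 3, 13 genes were called higher in G2 than in early G1, and 4 higher and 5 lower in late than in early G1. The 10 calls between early and late G1 became 6 without the early G1 library numbered 1 and 6 without the late G1 library numbered 1. The share of all genes called in these leave-out fits is not given here. On log2(TPM + 1) with limma, 5 genes were called higher in G2 than in early G1 and 2 lower in late than in early G1. Of all 16011 genes, limma called 46 and 158 in these comparisons and directions, and the main fit 304 and 601. On this scale 35 of the 37 still lay above 0 from early G1 to G2, with a median of 0.30.

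**Figure D2:**
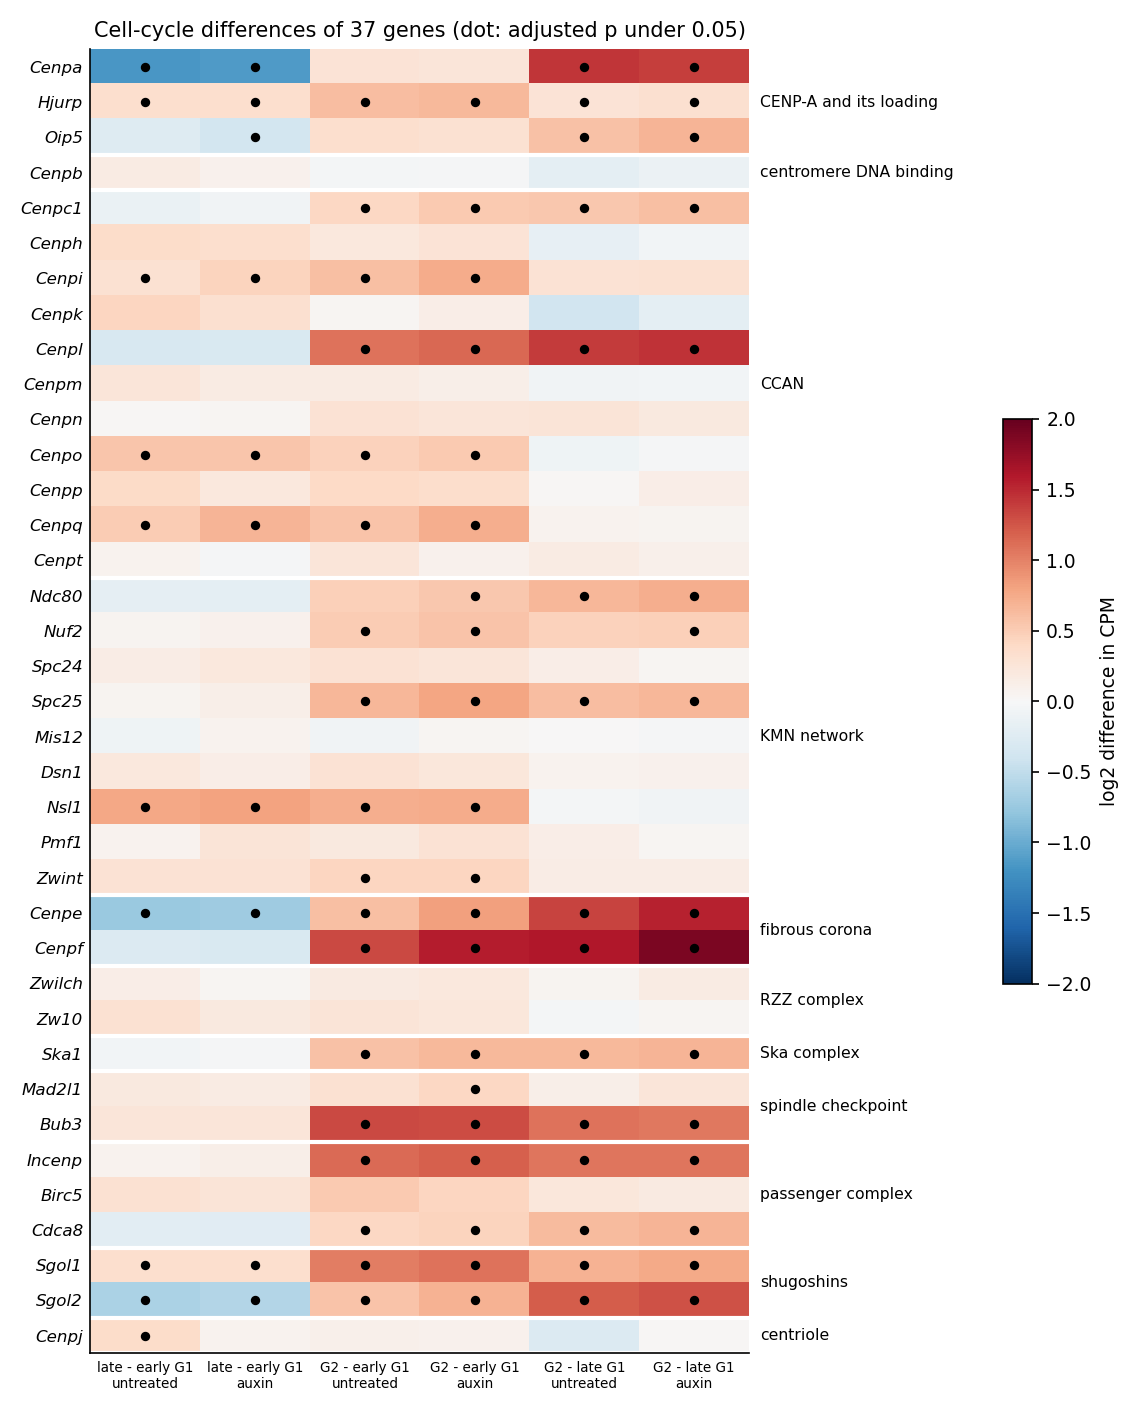
Log2 differences in CPM between phases for the 37 genes (rows, grouped by role; CCAN, constitutive centromere-associated network) in 6 comparisons (columns), with a dot where the adjusted p was under 0.05. The G2 columns are mostly red, the late minus early G1 columns hold both colours, and untreated and auxin columns look alike.

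Of CENP-A and its loading factors, the histone itself and its chaperone moved in opposite directions in late G1. Cenpa stood at 78.6, 78.6 and 65.7 CPM in the 3 untreated early G1 libraries, 34.2, 36.4 and 29.3 in late G1 and 91.6, 92.8 and 85 in G2. Every late G1 value lay below every value of the other phases. It fell by 1.16 on the log2 scale from early to late G1 (SE 0.097, adjusted p = 2.15e-06), to 0.448 of its level, the only one of the 37 to fall by more than 2-fold, and rose 2.69-fold from late G1 to G2 (log2 1.43, SE 0.098, adjusted p = 3.55e-08). Its G2 and early G1 values did not overlap either, but this difference of 0.27 had an adjusted p of 0.133, and of 0.0101 with the replicate block. Hjurp, the chaperone that deposits CENP-A, climbed instead at each step, from 185, 192 and 182 CPM in early G1 to 221, 234 and 252 in late G1 and 275, 274 and 308 in G2. It rose by 0.34 (SE 0.075, adjusted p = 0.00991) into late G1 and by 0.62 (SE 0.075, adjusted p = 7.49e-05) from early G1 to G2. The call into late G1 was kept in 11 of 15 alternatives, with differences of 0.22 to 0.38 over all of them. It was lost without the untreated libraries numbered 3, with only the groups compared, and in both fits on log2 TPM. The further rise from late G1 to G2, 0.28 (SE 0.075, adjusted p = 0.0355), did not pass when any 1 of late G1 libraries 1 and 2 and G2 libraries 1, 2 and 3 was left out (highest adjusted p = 0.141). Oip5, the Mis18 beta subunit of the complex that licenses loading, stood at 21.3, 22.8 and 17.8 CPM, then 17.7, 17.9 and 16.2, then 27.5, 26.5 and 24.2. Its rise from late G1 to G2 was 0.59 (SE 0.093, adjusted p = 0.000589), whereas its difference of -0.26 from early to late G1 had an adjusted p of 0.116 (0.0191 with the block) and that of 0.34 from early G1 to G2 one of 0.0505 (0.00316 with the block).

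The other Mis18 subunit of the list, Mis18a, is absent under that symbol, and its gene ID carries the symbol 2610039C10Rik in the table. It is kept out of the counts above. It stood at 14.5, 15 and 12.2 CPM in untreated early G1, then 20.1, 18.3 and 19.9 in late G1 and 24.5, 24.3 and 21.2 in G2, and was higher by 0.48 in late than in early G1 (adjusted p = 0.00421) and by 0.75 in G2 than in early G1 (adjusted p = 0.000117). The difference between these partners of 1 complex was not tested.

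**Figure D3:**
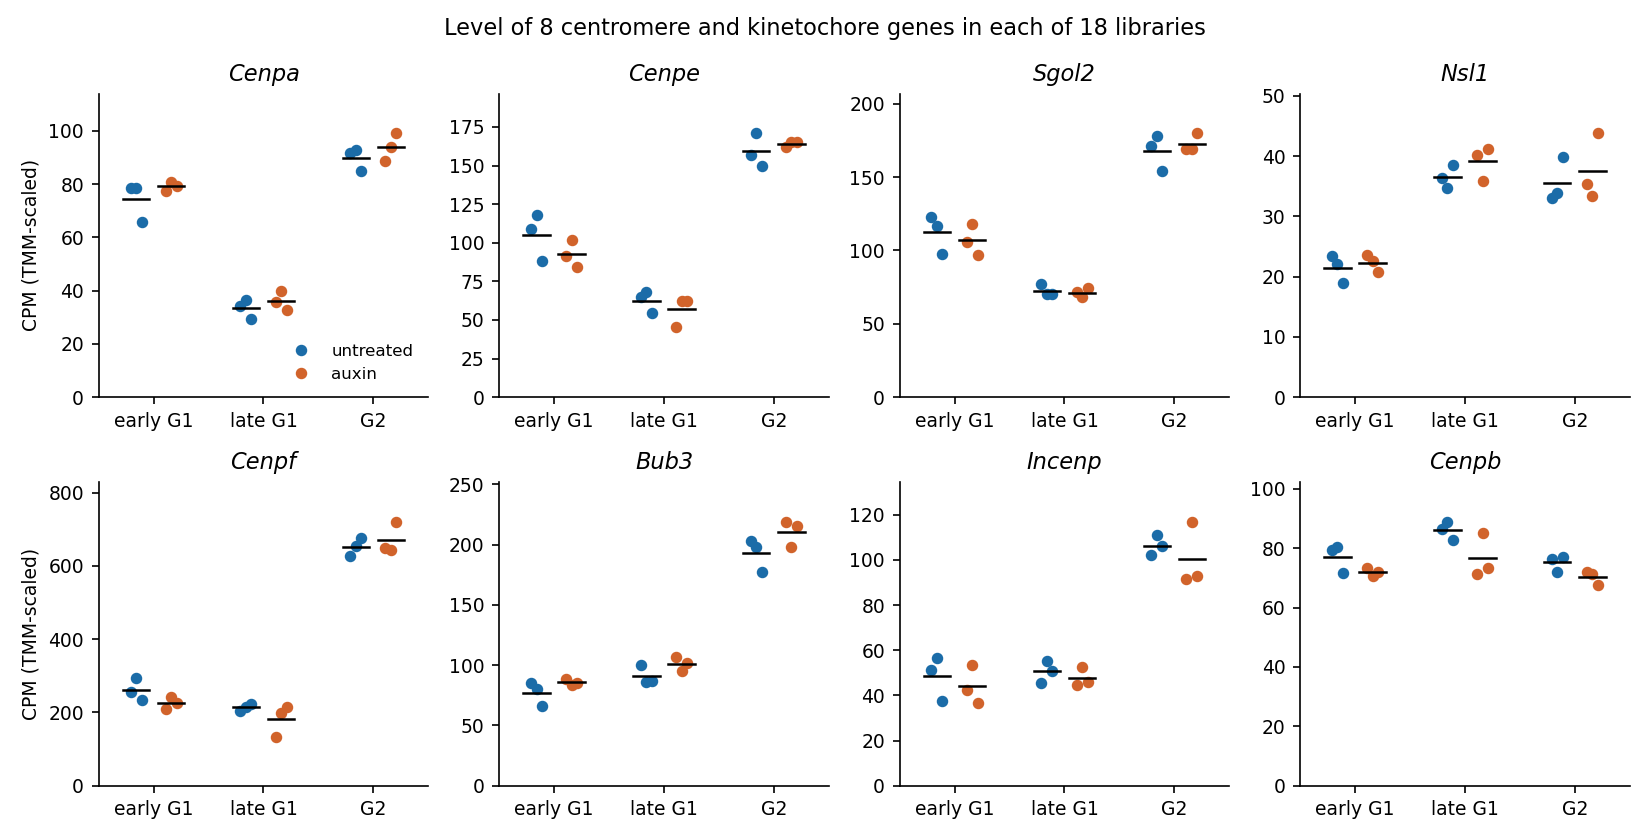
CPM (TMM-scaled, linear axis from 0) of 8 genes in each library, by phase, untreated in blue and auxin in orange; points are libraries and black lines the mean of 3. Cenpa, Cenpe and Sgol2 dip in late G1, Nsl1 steps up in late G1, Cenpf, Bub3 and Incenp are high in G2, and Cenpb stays level.

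Cenpb, which binds a short DNA box in centromeric satellite repeats, passed no test between phases. Its untreated values were 79.5, 80.3 and 71.7 CPM in early G1, then 86.5, 89 and 82.9 in late G1 and 76.5, 72 and 77.2 in G2. All 3 late G1 libraries lay slightly above those of the other phases, yet the differences were 0.16 into late G1 (adjusted p = 0.244) and -0.20 from late G1 to G2 (adjusted p = 0.168, 0.0362 with the block).

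The 11 subunits of the constitutive centromere-associated network fell into several patterns. From early G1 to untreated G2, 5 rose and none fell (1.9% and 1.7% of all tested genes), with a median of 0.40. Cenpl changed most, from 7.6, 9.68 and 8.31 CPM in early G1 and 7.16, 6.11 and 7.26 in late G1 to 18, 20.9 and 15.1 in G2. Its G2 libraries lay well above all others, a 2.11-fold rise over early G1 (log2 1.08, SE 0.137, adjusted p = 0.000123) and a 2.63-fold rise over late G1 (log2 1.40, SE 0.139, adjusted p = 3.03e-06). Cenpi rose earlier, standing at 23.3, 26.3 and 23.1 CPM in early G1, then 29.9, 28.3 and 31.9 in late G1 and 37, 37.3 and 36.1 in G2. Its rise from early G1 to G2 was 0.60 (SE 0.088, adjusted p = 0.000539). The rise into late G1, 0.31 (SE 0.088, adjusted p = 0.0397), did not pass when any 1 of early G1 libraries 1 and 3 and late G1 libraries 1, 2 and 3 was left out (highest adjusted p = 0.145). From late G1 to G2 the difference of 0.29 had an adjusted p of 0.0629, and of 0.011 with the block. Cenpq went from 15.2, 17.4 and 15.5 CPM to 25, 19.5 and 23.5 in late G1 and then stayed, at 23.6, 23.5 and 24.1 in G2. Its early to late G1 rise was 0.50 (SE 0.116, adjusted p = 0.0129), and did not pass when any 1 of early G1 library 1 and late G1 library 1 was left out (highest adjusted p = 0.0666); from early G1 to G2 it rose by 0.57 (SE 0.116, adjusted p = 0.00996). Cenpo, which works with Cenpq and Cenpp in the same subcomplex, took the same course, rising by 0.55 (SE 0.085, adjusted p = 0.000658) into late G1 with a late G1 to G2 difference of -0.08 (adjusted p = 0.705).

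Cenpc1, the mouse CENP-C gene, whose product links CENP-A nucleosomes to the outer kinetochore, rose only at the last step: by 0.41 (SE 0.07, adjusted p = 0.00233) from early G1 to G2 and by 0.54 (SE 0.07, adjusted p = 7.01e-05) from late G1 to G2, with an early to late G1 difference of -0.13 (adjusted p = 0.305). The other 6 (Cenph, Cenpk, Cenpm, Cenpn, Cenpp and Cenpt) passed none of the 3 untreated tests without the block. With it, Cenph (adjusted p = 0.00294), Cenpk (0.0117), Cenpm (0.0301) and Cenpp (0.00805) were called higher in late than in early G1, so that 7 of the 11 were called at that step (11.4% of all genes). Cenpk was called lower in G2 than in late G1 (0.0273). Of the 11, the block also called 7 higher in G2 than in early G1 (5 without it, 7.79% of all genes with it). Over late G1 it called 4 higher in G2 (2 without it, 8.08% of all genes with it). Cenpt, whose product recruits the Ndc80 complex along a second path, differed by 0.07, 0.24 and 0.17 over the 3 comparisons and passed none with or without the block.

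In the KMN network, 4 of 9 rose from early G1 to untreated G2 and none fell (1.9% and 1.7% of all tested genes), with a median of 0.43. Nsl1, a subunit of the Mis12 complex, stepped up earliest. Its values were 23.4, 22.1 and 18.9 CPM in early G1, then 36.4, 34.7 and 38.5 in late G1 and 33, 33.9 and 39.8 in G2, with no overlap between early G1 and the later phases. It rose 1.7-fold into late G1 (log2 0.77, SE 0.112, adjusted p = 0.000326), the largest late G1 rise of the 37, and differed by -0.04 between late G1 and G2 (adjusted p = 0.908). Its partners in the Mis12 complex did not pass any untreated test without the block: from early G1 to G2, Mis12 itself differed by -0.07 (adjusted p = 0.699), Dsn1 by 0.29 (adjusted p = 0.0956, 0.0157 with the block) and Pmf1 by 0.20 (adjusted p = 0.558).

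Of the Ndc80 complex, which grips the microtubule, Spc25 passed the test at both steps into G2, Nuf2 over early G1 only, Ndc80 over late G1 only and Spc24 at neither without the block, and none was called between early and late G1. Spc25 stood at 63, 60 and 52.4 CPM in early G1, then 66.2, 55.5 and 60.3 in late G1 and 94.5, 94.8 and 89.5 in G2. It rose by 0.67 (SE 0.11, adjusted p = 0.00167) over early G1 and by 0.61 (SE 0.11, adjusted p = 0.00211) over late G1, and was called at both steps under each of the 15 alternatives tried. Nuf2 stood at 67, 59.7 and 42.8 CPM, 64, 56.6 and 56.1 and 86.9, 79.6 and 75.7, with the early G1 library numbered 3 far below the other 2. Its rise from early G1 to G2, 0.52 (SE 0.139, adjusted p = 0.0462), did not pass when any 1 of early G1 libraries 2 and 3 and G2 libraries 1, 2 and 3 was left out (highest adjusted p = 0.189). Ndc80 rose from late G1 to G2 (log2 0.66, SE 0.136, adjusted p = 0.00673), and its early G1 to G2 difference of 0.48 had an adjusted p of 0.0595 (0.00425 with the block). Spc24 differed by 0.29 from early G1 to G2 (adjusted p = 0.336, 0.00868 with the block). Zwint, which helps to recruit the RZZ complex, rose by 0.43 (SE 0.11, adjusted p = 0.0364) over the same step, and did not pass when any 1 of early G1 libraries 1, 2 and 3 and G2 libraries 1, 2 and 3 was left out (highest adjusted p = 0.114).

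Both fibrous corona genes were far higher in G2. Cenpf, a large coiled-coil protein of the nuclear matrix and the outer kinetochore, stood at 256, 294 and 233 CPM in early G1, then 205, 216 and 224 in late G1 and 626, 655 and 675 in G2. No G2 value came near a G1 value, and it rose 2.5-fold over early G1 (log2 1.32, SE 0.132, adjusted p = 6.65e-06) and 3.04-fold over late G1 (log2 1.60, SE 0.133, adjusted p = 2.77e-07). Cenpe, the kinetochore kinesin that carries chromosomes toward the spindle equator, and Sgol2 are named here after their values were seen, for their fall in late G1. Cenpe stood at 109, 118 and 88.3 CPM in early G1, then 65, 67.9 and 54.7 in late G1 and 157, 171 and 150 in G2, with no overlap between any of the phases. It fell by 0.75 into late G1 (SE 0.124, adjusted p = 0.00121) and rose 2.55-fold from late G1 to G2 (log2 1.35, SE 0.125, adjusted p = 1.15e-06). The rise over early G1, 0.60 (SE 0.123, adjusted p = 0.00991), did not pass when any 1 of early G1 library 3 and G2 library 2 was left out (highest adjusted p = 0.061).

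The shugoshins guard cohesin at the centromere, and the pair differed in late G1. Sgol1 stood at 24.8, 28.1 and 22.3 CPM in early G1, then 35.5, 29.6 and 29.6 in late G1 and 51.9, 52.7 and 48.6 in G2, so that each phase lay above the one before. It rose 2.04-fold from early G1 to G2 (log2 1.03, SE 0.098, adjusted p = 3.66e-06). Its rise into late G1, 0.34 (SE 0.097, adjusted p = 0.0445), did not pass when any 1 of early G1 libraries 1 and 3 and late G1 libraries 1, 2 and 3 was left out (highest adjusted p = 0.209). Sgol2 stood at 123, 117 and 97.4 CPM in early G1 and dropped to 77.2, 70.5 and 70 in late G1 before reaching 171, 178 and 154 in G2. It fell by 0.63 into late G1 (SE 0.094, adjusted p = 0.000396) and rose 2.31-fold from there to G2 (log2 1.21, SE 0.095, adjusted p = 1.43e-07). A further shugoshin 2 gene named in the symbol reference, Sgo2b, was not analysed here, and reads that fit both genes may be counted under Sgol2.

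Of the spindle checkpoint genes, Bub3, the WD-repeat protein that brings Bub1 and BubR1 to the kinetochore, stood at 84.9, 80.3 and 66.2 CPM in early G1, then 100, 85.7 and 86.4 in late G1 and 203, 198 and 177 in G2. G2 lay far above both G1 phases, a rise of 2.5-fold over early G1 (log2 1.32, SE 0.096, adjusted p = 8.49e-08) and 2.12-fold over late G1 (log2 1.09, SE 0.095, adjusted p = 5.14e-07), called under each of the 15 alternatives. All 3 late G1 libraries were also slightly above early G1, by 0.23 (adjusted p = 0.155, 0.0151 with the block). Mad2l1, the checkpoint protein MAD2, differed by 0.31 from early G1 to G2 (adjusted p = 0.0801, 0.00629 with the block).

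In the chromosomal passenger complex, which corrects wrong attachments through Aurora B, 2 of 3 rose into G2. Of all tested genes, 1.9% were called higher over early G1 and 2.72% over late G1. Incenp, the scaffold, stood at 51.3, 56.4 and 37.7 CPM in early G1, then 45.6, 55.4 and 51 in late G1 and 102, 111 and 106 in G2. It was level within G1, with overlapping libraries, and rose 2.2-fold from early G1 (log2 1.13, SE 0.147, adjusted p = 0.000156). Birc5 stood at 69.3, 68.9 and 45.4 CPM, 82.9, 80.4 and 63.4 and 93.5, 90.8 and 79.7, with the library numbered 3 lowest in each phase. Its difference of 0.52 from early G1 to G2 had an adjusted p of 0.0826, and of 5.21e-06 with the block. Cdca8, the borealin subunit, rose from late G1 to G2 by 0.64 (SE 0.104, adjusted p = 0.00082). Its rise over early G1, 0.42 (SE 0.103, adjusted p = 0.0301), did not pass when any 1 of early G1 libraries 1 and 3 and G2 libraries 1, 2 and 3 was left out (highest adjusted p = 0.137).

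Among the remaining complexes, Ska1, a microtubule-binding subunit that supports the Ndc80 complex, stood at 13, 11.1 and 9.14 CPM in early G1, then 11, 10.4 and 10.6 in late G1 and 18.5, 16.3 and 15.3 in G2, all G2 values above all G1 values. Its rise from early G1, 0.59 (SE 0.156, adjusted p = 0.0409), did not pass when any 1 of early G1 libraries 2 and 3 and G2 libraries 1, 2 and 3 was left out (highest adjusted p = 0.182). Ska2 and Ska3 are in the table under older symbols, matched by gene ID and kept out of the counts. Ska2 (Fam33a) stood at 37.4, 37.9 and 40 CPM in early G1, then 29.3, 24 and 29.6 in late G1 and 52.2, 50.4 and 56.7 in G2, a late G1 low like that of Cenpa, with a rise of 0.94 from late G1 to G2 (adjusted p = 0.000265) and a fall by 0.48 into late G1 (adjusted p = 0.0422). Ska3 (F630043A04Rik) rose by 0.34 from early G1 to G2 (adjusted p = 0.039). Zw10, which recruits dynein to the kinetochore as part of the RZZ complex, stood at 39.2, 37 and 31.8 CPM, 45.8, 43.2 and 43.8 and 47.8, 42.8 and 39.1, and its differences of 0.30 into late G1 and 0.26 into G2 had adjusted p-values of 0.0836 and 0.171 (0.00138 and 0.00605 with the block). Zwilch, of the same complex, passed no test in either fit. Cenpj, the centriole gene, read highest in late G1, at 11.1, 10 and 10.1 CPM against 8.24, 7.91 and 7.98 in early G1 and 8.52, 8.75 and 8.48 in G2. The rise into late G1, 0.37 (SE 0.097, adjusted p = 0.0257), did not pass when any 1 of early G1 libraries 1, 2 and 3 and late G1 libraries 1 and 2 was left out (highest adjusted p = 0.113).

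The same comparisons in auxin-treated cells use the other 9 libraries, fitted in 1 model with the untreated ones and with a shared estimate of spread. Same-numbered treated and untreated libraries also deviated together, with correlations of 0.26 to 0.29 in early G1, 0.22 to 0.29 in late G1 and 0.05 to 0.22 in G2. Calls shared by the treated and untreated sets are therefore not independent repeats. From early G1 to G2, 20 of 37 rose and none fell (backgrounds 2.09% higher and 1.79% lower), with a median of 0.44. From late G1 to G2, 16 rose and none fell (3.48% and 2.43%), and from early to late G1, 6 rose and 4 fell (3.21% and 4.21%). With the block, 29 were called higher and 0 lower from early G1 to G2 (8.03% and 7.16%), 19 higher and 0 lower from late G1 to G2 (9.84% and 7.85%) and 14 higher and 6 lower from early to late G1 (10.9% and 11.7%). All 18 genes called higher in untreated G2 over early G1 were called with auxin too, 90% of the 20, with Ndc80 and Mad2l1 added. All 15 called over late G1 were called again, 93.8% of the 16, with Nuf2 added. For the late G1 falls, Cenpa, Cenpe and Sgol2 were called in both sets (75% of the 4 with auxin, Oip5 being the other), and of the 7 late G1 rises 6 were called again (85.7% of the untreated and 100% of the auxin calls), Cenpj being the exception. The difference between treatments in these steps was itself tested as an interaction and passed for none of the genes.

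**Figure D4:**
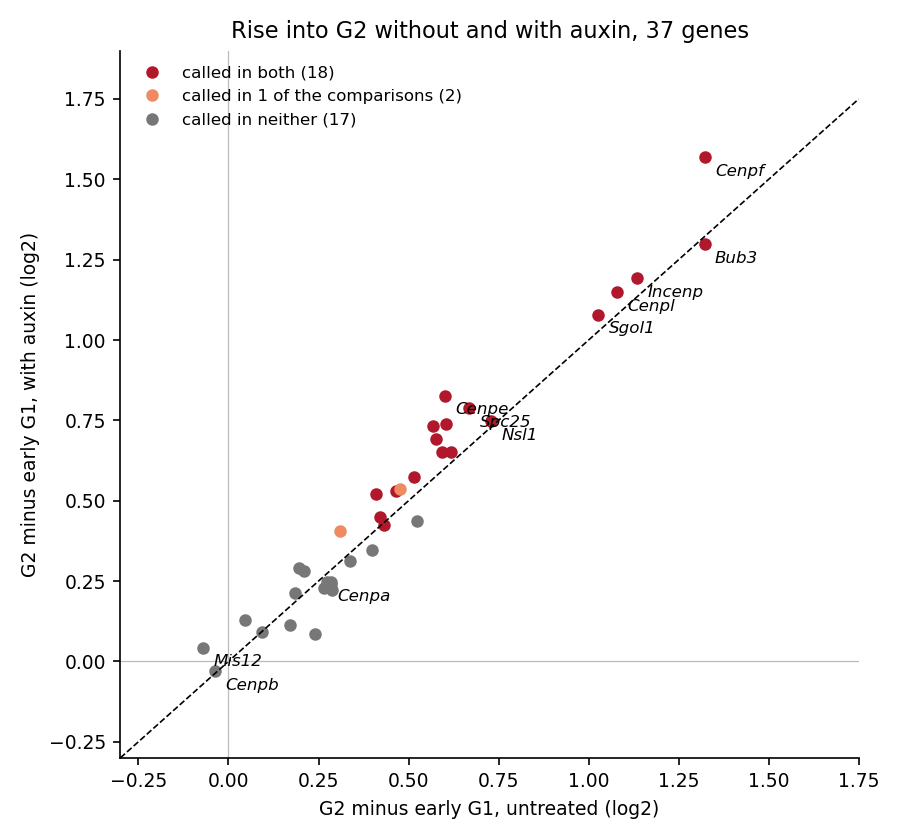
G2 minus early G1 difference (log2) of each of the 37 genes in untreated cells (horizontal) and with auxin (vertical), coloured by how many of the comparisons called it; the dashed line marks equal values. The 18 genes called in both run along the line up to Cenpf at 1.32 and 1.57, and Mis12 and Cenpb lie near 0 on both axes.

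With auxin, Cenpa stood at 77.4, 80.8 and 79.1 CPM in early G1, then 35.6, 40 and 32.6 in late G1 and 88.8, 93.8 and 99.1 in G2, again with every late G1 library lowest, a fall by 1.13 (SE 0.097, adjusted p = 2.87e-06) and a rise of 1.38 (SE 0.097, adjusted p = 4.83e-08). Cenpf stood at 210, 243 and 225 CPM, 134, 199 and 214 and 650, 644 and 721. Its late G1 library numbered 1 was far below the other 2, and its rise from late G1 to G2, 1.88 (SE 0.134, adjusted p = 4.98e-08), was the largest in either set. Cenpe stood at 91.7, 102 and 84.2 CPM, 45.7, 62.2 and 62.5 and 162, 165 and 165, and Sgol2 at 106, 118 and 97.2 CPM, 71.8, 68 and 74.2 and 169, 169 and 180. Both again had their lowest libraries in late G1 and their highest in G2. Nsl1 stepped from 20.7 to 23.6 CPM in early G1 to 35.9 to 41.2 in late G1 and 33.3 to 43.8 in G2. Bub3 ran from 83.5 to 88.1 CPM in early G1 and 94.9 to 107 in late G1 to 198 to 219 in G2. Incenp went from 36.5 to 53.3 and 44.6 to 52.6 CPM in the G1 phases to 91.7 to 117 in G2, and Cenpl from 7.05 to 8.4 and 5.7 to 6.76 to 15.4 to 18.6. Spc25 ranged from 61.5 to 65 CPM in early G1 and 61 to 77.9 in late G1 to 93.3 to 127 in G2, where 1 library was well above the others. In these 5 genes no G2 library overlapped an early G1 library, which held for 30 of the 37 genes. The share over all genes is not given here. Oip5 fell by 0.37 from early to late G1 (adjusted p = 0.0198), and did not pass when any 1 of early G1 libraries 1 and 2 and late G1 libraries 1 and 3 was left out (highest adjusted p = 0.0898).

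Auxin itself passed the test for none of the 37 genes in any phase. In early G1, 0 of 37 were called against 0.106% of all genes, in late G1 0 against 1.02%, in G2 0 against 0.668% (edgeR), and the members with an unadjusted p under 0.05 numbered 0, 2 and 2. Their median differences, auxin minus untreated, were 0.05, 0.03 and 0.05 on the log2 scale, against 0.01, 0.00 and 0.01 over all genes. The sign of these medians turned with the setting: without the untreated libraries numbered 3 they were -0.04, -0.02 and 0.03, and on log2(TPM + 1) -0.13, -0.14 and -0.11, where all genes had -0.08, -0.08 and -0.07. In late G1 the 2 were Cenpj, at 8.39, 9.35 and 7.95 CPM with auxin and 11.1, 10 and 10.1 without, a difference of -0.28 (adjusted p = 0.259), and Cenpb, at 71.3, 85.1 and 73.3 and 86.5, 89 and 82.9 CPM, a difference of -0.17 (adjusted p = 0.449). In G2 they were Cenpk (0.32, adjusted p = 0.628) and Spc25 (0.23, adjusted p = 0.632), whose treated G2 libraries overlapped the untreated ones.

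Averaged over the 3 phases, where all 18 libraries contribute and 5.68% of all genes were called, 0 of the 37 were called. At an unadjusted p under 0.05 there were 5 of the 37 and 3636 of all 16011 genes. DESeq2 called 1 of the 37, Cenpb (adjusted p = 0.0494), and 1381 of all 16011 genes. With the replicate block 5 were called, Bub3, Cenpk, Spc25 and Zwint higher and Cenpb lower, 13.5% of the 37 against 24.6% of all genes. Without the treated late G1 library numbered 2, Cenpb was called lower (adjusted p = 0.0448), and without the treated G2 library numbered 2, Cenpk (adjusted p = 0.0491) and Spc25 (adjusted p = 0.0383) were called higher. The differences ran from -0.16 (Cenpl) to 0.22 (Cenpk). The 95% intervals, unadjusted, included 0 for 33 of 37 and excluded it for Cenpk, Spc25 and Bub3 above 0 and Cenpb below. They were built on the 12 residual degrees of freedom, fewer than the test uses. An interval can thus include 0 for a gene with an unadjusted p under 0.05. Over all 37, the intervals reached at most a 1.33-fold rise and a 1.26-fold fall. These are the widest ends of single genes and not a limit of detection. Smaller changes within the interval of a gene remain possible with 3 libraries per group. Without the untreated libraries numbered 3, the median of this average was 0.00 in place of 0.05. The TPM scale shifts all genes down with auxin: the median over the 37 was -0.12 on log2(TPM + 1), below the -0.08 of all genes, and -0.15 on log2(TPM + 0.1), where all genes had -0.16. On both, Cenpk was the only one of the 37 above 0 (at 0.01), and Bub3, Spc25 and Zwint lay below 0. In the same libraries the ES marker sum was 2278 to 2432 CPM with auxin and 2376 to 2752 without, and the part of the ES markers' fall in the members' values was not tested.

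**Figure D5:**
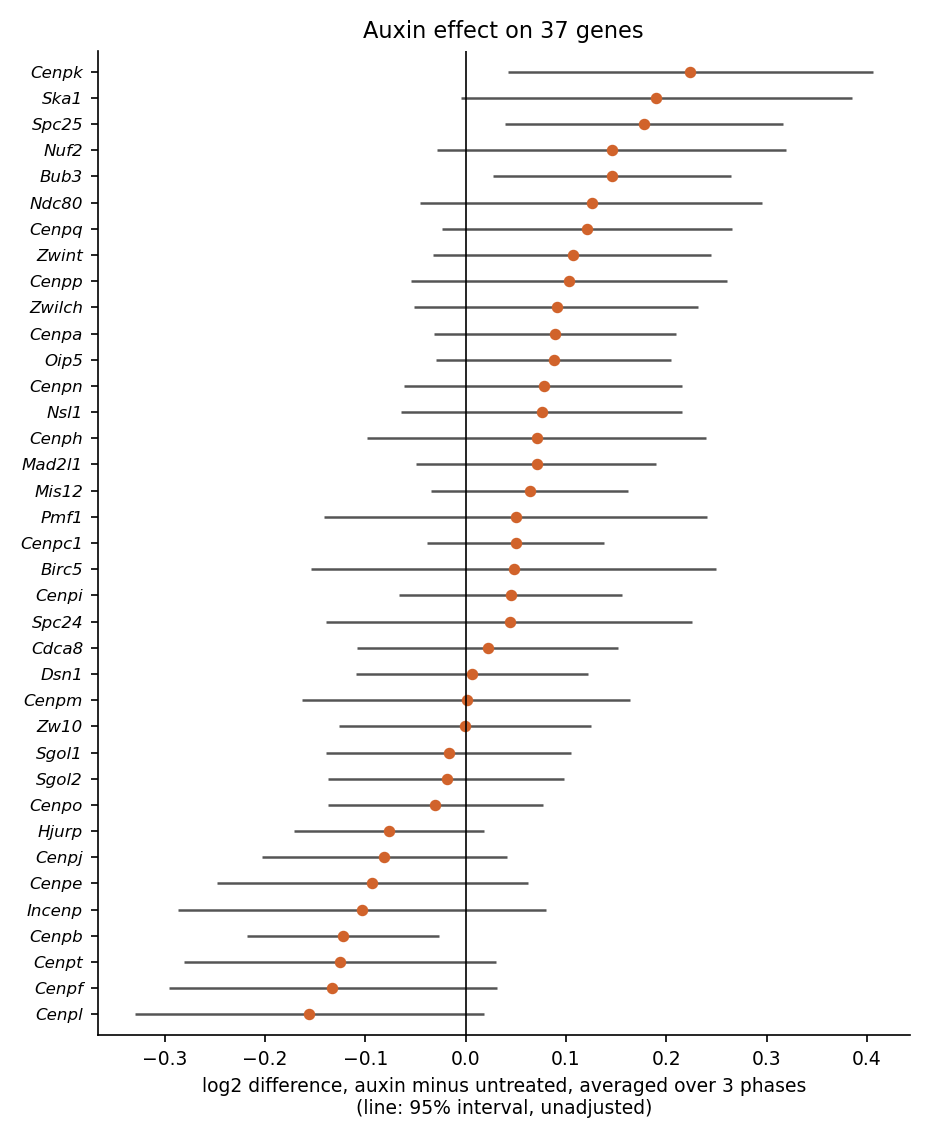
Difference between auxin and untreated cells averaged over the 3 phases (points, log2) with its unadjusted 95% interval (lines) for each of the 37 genes, ordered by size. Intervals include 0 for 33 genes, and no interval extends beyond -0.33 or 0.41.

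Whether the phase differences themselves changed with auxin was tested as an interaction. For the step into late G1, the step from early G1 to G2 and that from late G1 to G2 alike, 0 of the 37 were called, as were 0% of all 16011 genes (edgeR). At an unadjusted p under 0.05 there were 222, 222 and 218 genes and 1, 0 and 1 members, and DESeq2 called 1 gene, no member, for the first. The unadjusted member was Cenpj, whose early to late G1 difference of differences, auxin minus untreated, was -0.30 (SE 0.137, edgeR adjusted p = 1). For the genes called in 1 set only, it was -0.12 for Oip5 into late G1, 0.06 for Ndc80 and 0.10 for Mad2l1 from early G1 to G2, and 0.03 for Nuf2 from late G1 to G2, each with an adjusted p of 1.

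Beyond the 37, 24 other genes of the same machinery were followed, among them the Aurora B kinase and further checkpoint kinases. In untreated cells, 9 of 24 rose and none fell from early G1 to G2, against 1.9% of all tested genes called higher and 1.7% lower. From late G1 to G2, 12 rose and 1 (Ercc6l, named after its value was seen) fell, against 2.72% and 2.32%. From early to late G1, 5 rose and 6 fell, against 3.27% and 3.75%. The medians, in that order, were 0.28, 0.26 and 0.08. Aurkb, the kinase of the passenger complex, rose most, from 11.1, 13.2 and 7.65 CPM in early G1 to 33, 32.1 and 31.8 in late G1 and 76.6, 76.8 and 70.1 in G2, a difference of 2.80 from early G1 to G2 (SE 0.163, adjusted p = 2.74e-09). Unlike its partner Incenp, it had already risen by 1.60 in late G1 (adjusted p = 7.32e-06); the difference between the genes was not tested. Gsg2, the histone kinase haspin, which marks the centromere for the passenger complex, stood at 21.2, 21.1 and 17.8 CPM in early G1, then 29.8, 30.9 and 32.7 in late G1 and 32.3, 34.3 and 32.1 in G2, a rise of 0.64 into late G1 (adjusted p = 0.00117) with a late G1 to G2 difference of 0.08 (adjusted p = 0.776). Casc5, the KNL1 scaffold of the KMN network, stood at 137, 140 and 118 CPM, 113, 109 and 106 and 189, 188 and 173, and Ttk, the checkpoint kinase MPS1, at 62.1, 60 and 43.9 CPM, 56.7, 48.5 and 49.5 and 86.6, 86.8 and 74.7. Both were higher in G2 than in early G1, by 0.48 (adjusted p = 0.00482) and 0.58 (adjusted p = 0.00658). With auxin, 10 of the 24 rose and none fell from early G1 to G2, against 2.09% and 1.79% of all genes. Auxin itself passed the test for none of them in any phase, against 0.106%, 1.02% and 0.668% of all genes in early G1, late G1 and G2.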

How the data were processed

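RNA-seq libraries of 18 sorted samples were used; the other samples of the series (97 in all, with ChIP-seq, ATAC-seq and MNase-seq) were not used here. The authors deposited expected counts per gene, whole numbers in the file, and a second table of TPM to 2 decimals. Per the submitters' processing notes, the tools of the series include RSEM and STAR, and its build is mm9, with no versions. Whether counting used strand is not given in the sources used here, so reads of overlapping or antisense genes cannot be told apart from those of a listed gene.

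The 40 symbols were matched exactly, and the 3 without a row by gene ID. The genes, their roles and the lists of other genes were chosen with earlier results of these data known. Groups and replicate numbers come from the sample titles. Replicates of a group differed by more than counting error. Counts were filtered with filterByExpr, scaled by TMM and fitted over all 18 libraries with edgeR 4.0.16 (robust quasi-likelihood test, 1 mean per group, 12 residual degrees of freedom), with Benjamini-Hochberg adjustment over the 16011 genes tested and a threshold of 0.05. The script was tested on simulated data. CPM are TMM-scaled. The text gives every library for the 1 to 3 genes per role with the largest difference between untreated G2 and early G1 and for Cenpa, and names the 5 other genes with the smallest p in that comparison. Others are given as differences or counts. Same-numbered libraries deviated together, with correlations of 0.19 to 0.5 in the phase comparisons, above the limit of 0.1, and the labels give no reason. Alternatives were a replicate block, RLE factors, 2 other filters, the groups of the comparison alone, DESeq2 1.42.0, limma 3.58.1 on log2(TPM + 1) and log2(TPM + 0.1), and leaving out libraries. Coordinates are those of the RefSeq promoter table (GRCm38.p6); none was taken from the files, which are on another build. An individual result for a further gene of the wider list, which is included in that list's counts, is not reported here.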

Additional observations from a re-analysis of the deposited data

How the results depend on the processing

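Every phase difference called without the block kept its sign in each alternative. With the replicate block, members called went from 10 to 20 (late minus early G1, untreated), 18 to 28 (G2 minus early G1, untreated), 10 to 20 (late minus early G1, auxin) and 0 to 5 (auxin averaged over phases: Bub3, Cenpk, Spc25 and Zwint higher, Cenpb lower, against 24.6% of all genes; in TPM, Bub3, Spc25 and Zwint turned negative, at -0.03 to -0.09); in auxin within G2, where the numbers pair the libraries only weakly (correlations 0.05 to 0.22), it called 0. All 18 libraries deviated most like those of their own number, a hint from the data and not from the design. Without the untreated libraries numbered 3, and with only the groups compared, late minus early G1 untreated gave 5 members each. Over all genes these fits called 594 of 16134 and 349 of 15056, against 1124 of 16011 in the main fit. On log2(TPM + 1), the 4 comparisons that moved gave 2, 5, 1 and 5 members (late minus early G1 and G2 minus early G1, untreated, then with auxin). Over all 16011 genes they gave 239, 86, 152 and 63 calls. On log2(TPM + 0.1) the members were 2, 4, 1 and 5, and the calls over all genes 212, 66, 167 and 61. In TPM the all-gene median moved by up to 0.17 between treatments. DESeq2 called 1 member for auxin averaged over phases, and 1381 of all 16011 genes. The cause of these differences was not tested.

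Leaving out 1 library at a time gave 6 to 9 members for late minus early G1 untreated and 0 to 2 for auxin averaged over phases. For G2 minus early G1 it gave 13 to 16 untreated and 14 to 20 with auxin. For G2 minus late G1 the counts were 13 to 14 and 14 to 16, and for late minus early G1 with auxin 8 to 10. Every auxin effect within a phase and every interaction stayed at 0. Calls over all genes in these fits are not given here, so the ranges cannot be set against other genes. Of the 18 untreated G2 over early G1 calls, 4 (Spc25, Cenpf, Bub3 and Sgol1) were kept in all 15 alternatives. With 3 libraries a group and 24841963 to 37587322 reads, the shares of counting error and library spread in small differences were not separated.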
